A study of Mus musculus with 4 samples.

Results

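The genes described are Rgs2 and 9 further regulators of G protein signalling (RGS): Rgs1, Rgs3, Rgs4, Rgs10, Rgs12, Rgs16, Rgs17, Rgs18 and Rgs19. They are 10 of the 34682 gene rows in the count table, and each was found by its symbol. The rows were chosen by the difference between mut and wt libraries seen in these same data, led by the low Rgs2 level in mut, so the values of the 10 genes in that comparison are given as a description without a test. RNA was measured by RNA-seq in ovaries dissected from mouse embryos at E13.5, with 2 libraries per group. The mut ovaries carried a transgene in which a bacterial artificial chromosome (BAC) of Wt1 drives the Sall1 coding sequence. It was inserted with piggyBac into female C57BL/6J embryonic stem cells (the methods also mention a C57BL/6J-129 hybrid line). Transgenic mice were made from these cells by morula aggregation, and no source says whether the embryos sampled came from aggregation or from later breeding. Sall1 encodes a zinc finger transcription factor of kidney and limb development, and Wt1 is active in the somatic cells of the early gonad. The wt ovaries carried no transgene. Their background is given in different ways: the results of the study describe littermates, its methods describe CD1 gonads for RNA-seq, and the count columns carry "B6" in their names. Strain and genotype therefore cannot be told apart where the backgrounds differed. No source says whether the libraries of a group came from separate embryos or pools, and the p-values below measure only the spread between these libraries.

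RGS proteins switch G protein signals off. A receptor on the cell surface loads GTP onto a G alpha subunit, which then activates effectors such as phospholipase C beta or adenylyl cyclase, and the RGS domain speeds up the hydrolysis of that GTP. The family is divided by sequence into R4 (here Rgs1, Rgs2, Rgs3, Rgs4, Rgs16 and Rgs18), RZ (Rgs17 and Rgs19), R12 (Rgs10 and Rgs12) and R7, whose members pair with the G beta subunit Gnb5. Rgs2 is the R4 member with a preference for G alpha q, the subunit behind responses to endothelin, angiotensin and many other vasoactive ligands, and in the adult ovary it is known as a gene induced in follicles around ovulation.

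Rgs2 was at 76.8 and 91.1 CPM (counts per 1e6 counts of the library, after scaling between libraries) in the wt libraries and at 19.5 and 19.6 CPM in the mut libraries. To show the regulatory sequence next to the gene, the 250 bases before the annotated start of Rgs2 are given, beside those of Rgs16, an R4 gene on the same chromosome whose levels in the 2 groups overlapped. Both were taken from RefSeq on GRCm38.p6 and each was found once in NCBIM37 (mm9), the build named in the submitters' processing notes: Rgs2 at chr1:145851280-145851529 on the minus strand and Rgs16 at chr1:155587233-155587482 on the plus strand. In NCBIM37 the GENCODE M1 annotation begins the first exon a few bases inside the end of either window. Capitals mark matches, on either strand, to the CCAAT box (the letters of its name), the GC box (GGGCGG) and a half-site of the cAMP response element (TGACG).
Rgs2: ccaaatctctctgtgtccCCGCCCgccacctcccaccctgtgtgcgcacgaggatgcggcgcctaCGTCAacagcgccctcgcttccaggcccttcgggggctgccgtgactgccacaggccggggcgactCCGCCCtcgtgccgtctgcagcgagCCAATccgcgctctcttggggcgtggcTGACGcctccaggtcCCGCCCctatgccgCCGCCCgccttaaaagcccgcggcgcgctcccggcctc
Rgs16: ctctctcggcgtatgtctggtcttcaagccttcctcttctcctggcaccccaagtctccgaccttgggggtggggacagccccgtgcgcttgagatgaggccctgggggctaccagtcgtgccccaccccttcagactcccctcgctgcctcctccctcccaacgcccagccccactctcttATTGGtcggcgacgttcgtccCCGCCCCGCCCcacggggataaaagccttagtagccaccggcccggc
The Rgs2 window held 1 CCAAT, 4 GGGCGG and 2 TGACG matches, and 72.4% of its bases were G or C. The Rgs16 window held 1 CCAAT and 2 overlapping GGGCGG matches, no TGACG, and 66.4% G or C. Neither contained TATAAA or ATATT, the latter being the AT-rich core bound by the related factor SALL4. Over 32851 RefSeq promoter windows of the same length, 33.8% contained CCAAT, 32.7% GGGCGG, 17.8% TGACG, 12.4% TATAAA and 23.3% ATATT. RefSeq windows were found for 8 of the 10 genes (12 windows, since some genes have several starts). Counted per window, 9 of the 12 had a GGGCGG match, and 3 had CCAAT, 3 had TGACG, 3 had TATAAA and 3 had ATATT, and windows of 1 gene are not independent. The matches describe letters and say nothing of binding.

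Library totals ranged from 11036313 to 17869840 counts, the mut libraries being the shallower ones, and 3 counts (the floor used here for counting error) correspond to 0.17 to 0.272 CPM. Sall1, the gene overexpressed by design, was at 113 and 96.0 CPM in mut and at 16.2 and 12.6 CPM in wt (log2 fold change 2.85 ± 0.161 SE, edgeR quasi-likelihood test with Benjamini-Hochberg adjustment, adjusted p = 0.00823), so it followed the labels. Markers of the ovary were present in every library, with summed levels of 581 to 625 CPM for 7 pre-granulosa genes and 1394 to 1615 CPM for 6 germ cell genes. In whole ovaries, fewer cells of a type and less RNA per cell cannot be told apart.

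Of the 10 RGS genes, 8 passed the filter on low counts and entered the fit across 15442 genes. The rule of an adjusted p under 0.05 called 0.0583% of all genes tested (9 genes, 2 higher and 7 lower in mut), and 1 of the 8, Rgs2, whose low level in mut had led to its choice. DESeq2, the tool of the study, also called Rgs2 alone among the 8, with 0.714% of 14709 genes called. The level in mut and wt did not overlap for 5 of the 8, which was so for 30.9% of all genes tested. Because the genes were chosen by this comparison, these counts are no test of the 8 genes and nothing is read from them. The median log2 fold change of the 8 was 0.0687, against -0.000881 over all genes tested.

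**Figure D1:**
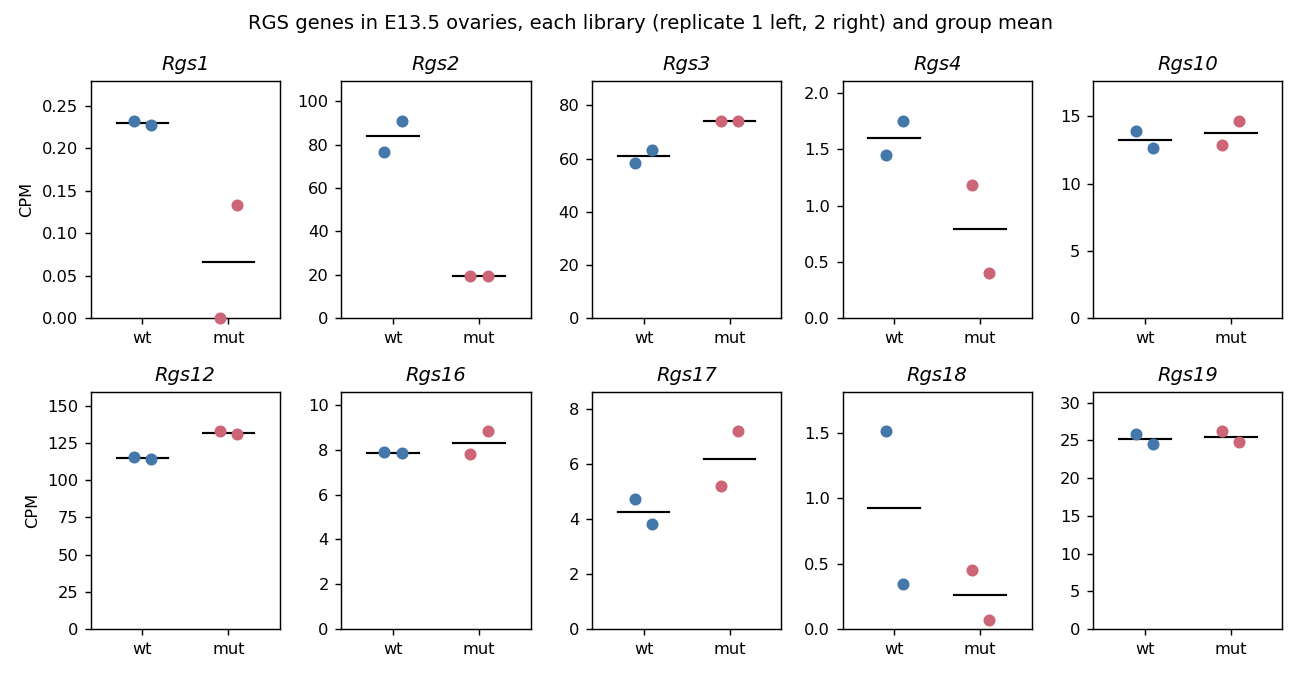
Level in CPM (vertical axis, from 0, with its own scale for each gene) of the 10 RGS genes in every library, wt in blue and mut in red, with the group mean as a bar. Rgs2 was at 76.8 and 91.1 CPM in wt and at 19.5 and 19.6 CPM in mut, while Rgs10, Rgs16 and Rgs19 overlapped between the groups.

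Rgs2 lies at chr1:145846468-145851291 on the minus strand (NCBIM37) and encodes a short protein that is little more than the RGS domain and an amphipathic helix that holds it at the membrane. Its counts were 1322 and 1608 in wt and 215 and 295 in mut. The mut libraries were nearly equal and the wt libraries were both far above them. The means were 84.0 ± 10.1 CPM in wt and 19.6 ± 0.0709 CPM in mut (SD, n = 2 each), which is 4.29 times higher in wt. An SD from 2 libraries is itself uncertain, and the small one in mut does not measure how precisely that level is known. On the log2 scale Rgs2 was lower in mut by a fitted difference of -2.10 ± 0.131 (SE), with a 95% interval from -2.41 to -1.79. Leaving out each library in turn gave -2.22 to -1.96.

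The other R4 genes past the filter were Rgs3, Rgs16 and Rgs4. Rgs3, which has long isoforms with a PDZ domain beside the RGS domain, was at 74.3 and 74.2 CPM in mut and at 58.3 and 63.4 CPM in wt. Both mut libraries lay above both wt libraries, by a log2 fold change of 0.29 ± 0.103 (SE). Rgs16, whose product acts on G alpha i and G alpha q, was at 7.80 and 8.84 CPM in mut and at 7.90 and 7.88 CPM in wt, so the groups overlapped, with a log2 fold change of 0.08 ± 0.203. The 95% interval ran from -0.404 to 0.562. Rgs4, best known from brain and heart, was low in counts, with 13 and 6 counts in mut and 25 and 31 counts in wt. Its level was 1.18 and 0.399 CPM in mut against 1.45 and 1.76 CPM in wt, and the log2 fold change of -1.07 had a wide interval, from -2.41 to 0.265. Without mut replicate 1 the value was -1.99, and without mut replicate 2 it was -0.444.

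Rgs1 and Rgs18, the R4 genes of blood cells, did not pass the filter. Rgs1, which dampens chemokine receptor signals in lymphocytes, had 0 and 2 counts in mut and 4 and 4 counts in wt, so every library was near or below the floor of 3. Rgs18, a gene of platelets and megakaryocytes, had 5 and 1 counts in mut and 26 and 6 counts in wt. Its level was 0.454 and 0.0665 CPM in mut and 1.51 and 0.340 CPM in wt, and the groups overlapped. The high value came from wt replicate 1 alone. The summed level of 11 listed megakaryocyte and platelet genes was also highest in wt replicate 1, at 32.3 CPM. It was 11.6 CPM in wt replicate 2 and 9.53 and 7.64 CPM in mut. Of these genes 5 were tested, 0 were called and none was at 0 in all libraries. The summed level of 13 macrophage genes was 200 and 80.0 CPM in wt and 162 and 78.9 CPM in mut, with Emr1 listed at 0. That of 9 erythroid genes was 3567 and 1737 CPM in wt and 3223 and 881 CPM in mut, with Hba-a2 and Hbb-b1 listed at 0. Most of the erythroid sum was Hbb-y, at 3004 and 1488 CPM in wt and 2762 and 774 CPM in mut. Replicate 1 was the higher one in both groups for the sums of all 3 lists and for Rgs18, but not for every gene listed. In mut replicates 1 and 2, Ppbp of the platelet list was at 0.544 and 0.997 CPM and the macrophage gene Ptprc at 1.9 and 3.2 CPM. Much of the macrophage sum came from Lyz2, at 109 and 14.9 CPM in wt and 55.9 and 9.57 CPM in mut. The part of blood cells in the Rgs18 and Rgs1 values was not tested.

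Outside R4, the chosen genes were Rgs12, Rgs10, Rgs19 and Rgs17. Rgs12, a large R12 scaffold with PDZ, Ras-binding and GoLoco domains, was the most counted of the 10, at 133 and 131 CPM in mut and 116 and 115 CPM in wt. Its libraries did not overlap, and the log2 fold change was 0.20 ± 0.0865 (SE). Rgs10, the small R12 member, was at 12.9 and 14.7 CPM in mut and 13.9 and 12.6 CPM in wt, a log2 fold change of 0.06 ± 0.167. Rgs19, an RZ gene also called GAIP, was at 26.2 and 24.8 CPM in mut and 25.8 and 24.5 CPM in wt, a log2 fold change of 0.02 ± 0.123. For Rgs10 and Rgs19 the groups overlapped, and the 95% intervals ran from -0.337 to 0.454 and from -0.274 to 0.310. Rgs17, the RZ gene that acts on G alpha z and G alpha i, was at 5.17 and 7.18 CPM in mut and 4.71 and 3.80 CPM in wt. The mut libraries lay above the wt libraries, with a log2 fold change of 0.54 and an interval from -0.136 to 1.22. The sum of the 9 genes other than Rgs2 was 261 CPM in both mut libraries and 230 and 229 CPM in the wt libraries.

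**Figure D2:**
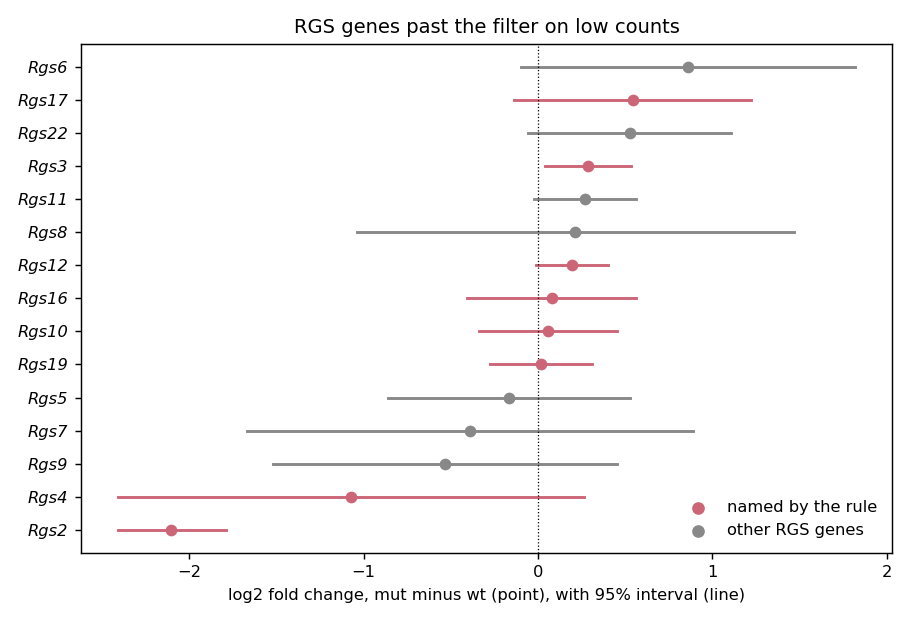
Log2 fold change, mut minus wt (horizontal axis), of the 15 RGS family genes past the filter, with the point for the estimate and the line for the 95% interval, in red for the genes named by the rule and in grey for the other family members. Rgs2 stands at -2.10 with an interval from -2.41 to -1.79, the next lowest is Rgs4 at -1.07 with an interval that includes 0, and the interval of Rgs3 runs from 0.0425 to 0.533.

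Levels of different genes were compared only per length, as CPM divided by the length of the longest transcript in kilobases (RPKM). In wt, Rgs2 came first among the 22 RGS family genes, at 25.4 and 30.2 RPKM. Rgs12 followed at 21.2 and 20.9 RPKM and Rgs19 at 17.1 and 16.2 RPKM. The next genes, Rgs10 with a mean of 15.1 ± 1.0 RPKM (SD, n = 2) and Rgs11, an R7 gene that was not among the 10, with 14.6 ± 1.6 RPKM, overlapped each other. Rgs3, at 12.4 RPKM in wt replicate 1 and slightly higher in wt replicate 2, lay below both Rgs10 values. Rgs16 was lower, at 3.38 and 3.37 RPKM. Rgs4, Rgs17 and Rgs18 had wt means of 0.546, 0.519 and 0.456 RPKM and overlapped, and Rgs1 came last of the 10 with a mean of 0.0819 RPKM.

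In mut, Rgs2 was at 6.46 and 6.49 RPKM and held rank 5 of the 10 genes and rank 6 of the 22. Rgs12 was first at 24.3 and 23.9 RPKM. Rgs11, Rgs19, Rgs3 and Rgs10 followed with means of 17.6, 16.9, 15.8 and 15.7 RPKM, but Rgs11 overlapped Rgs19, and Rgs10 overlapped both Rgs19 and Rgs3, so their order does not go beyond the spread, and it changed with the length of all exons together. Rgs2 remained above Rgs16, which had a mut mean of 3.56 RPKM. Taken as a share of the summed RPKM of the 22 genes, Rgs2 made up 21.7% and 24.9% in wt and 6.1% and 6.0% in mut. Within the 10 R4 genes its share was 58.1% and 61.4% in wt and 23.5% and 23.7% in mut. Other subfamilies took larger shares in mut than in wt, with R12 at 36.6% and 37.8% against 31.7% and 29.3%, although a share moves with every gene in the sum. Rgs2 also came first in wt when the length of all exons together was used.

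**Figure D3:**
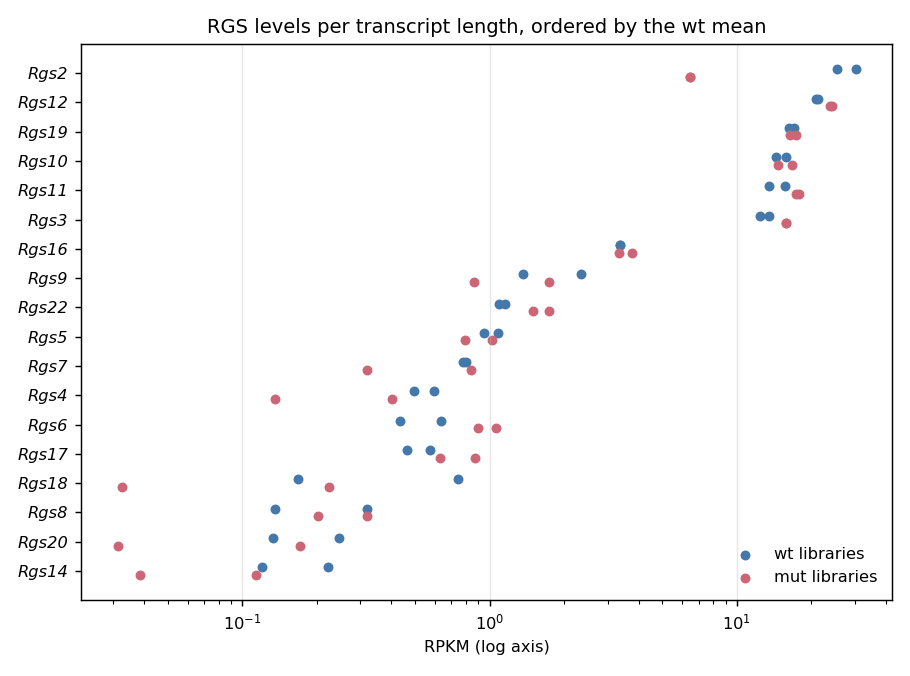
RPKM on a log axis of the 18 RGS family genes with counts in every library, ordered by the wt mean, wt libraries in blue and mut libraries in red. Rgs2 was at 25.4 and 30.2 RPKM in wt and at 6.46 and 6.49 RPKM in mut, where it lay below Rgs12, Rgs19, Rgs10, Rgs11 and Rgs3.

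The remaining 12 RGS genes of the table were not used by the rule. Of these, 7 were tested and 0 were called by edgeR or by DESeq2, and 0 had an unadjusted p under 0.05. Over all genes tested edgeR called 0.0583% and DESeq2 0.714%, so nothing is read from the 0 calls. Rgs11, which forms a complex with Gnb5, was the most counted, at 46.6 and 48.5 CPM in mut and 36.4 and 42.5 CPM in wt (log2 fold change 0.27 ± 0.123 SE, adjusted p = 0.930). Rgs22, known from testis, was at 5.99 and 6.91 CPM in mut and 4.59 and 4.36 CPM in wt (log2 fold change 0.53, adjusted p = 0.942). Rgs6, an R7 gene of heart and brain, was at 2.27 and 1.93 CPM in mut and 0.930 and 1.36 CPM in wt (log2 fold change 0.86, adjusted p = 0.949). In these 3 genes the mut libraries lay above the wt libraries without passing the test.

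Rgs9, the R7 gene of photoreceptors and striatum, differed as much within groups as between them, at 5.99 and 2.99 CPM in mut and 8.14 and 4.70 CPM in wt (adjusted p = 1). Rgs5, the R4 gene of pericytes, was at 4.17 and 3.26 CPM in mut and 3.89 and 4.42 CPM in wt (log2 fold change -0.17, adjusted p = 1). Rgs7 and Rgs8 had log2 fold changes of -0.39 and 0.21 with standard errors of 0.540 and 0.528. Rgs14, of R12, and Rgs20, of RZ, did not pass the filter, with 1 to 9 counts in a library, and Rgsl1 had at most 4 counts in a library. Rgs13 and Rgs21 were listed at 0 in all 4 libraries, which allows up to 0.17 to 0.272 CPM for counting error only.

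Position was not used by the rule, and Rgs2 sits at the end of a cluster of 5 R4 genes, all transcribed from the minus strand of chromosome 1. Rgs13, Rgs1, Rgs21 and Rgs18 follow it at 134506, 239811, 515529 and 748522 bases toward higher coordinates. None of the 4 was counted at a level near that of Rgs2: Rgs13 and Rgs21 were at 0, Rgs1 had at most 4 counts and Rgs18 at most 26. The next gene beyond them with a count row, Fam5c, was also listed at 0, at 2491468 bases.

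On the other side lie genes of general cell function. Uchl5, a proteasome-linked deubiquitinase, is nearest at 191872 bases and was at 34.2 and 36.0 CPM in mut and 37.1 and 40.4 CPM in wt. Trove2, which binds small noncoding RNAs, was at 55.4 and 40.7 CPM in mut and 54.3 and 62.6 CPM in wt, and Glrx2, a mitochondrial glutaredoxin, was at 39.4 and 37.6 CPM in mut and 37.8 and 37.9 CPM in wt. Cdc73, a subunit of the PAF1 transcription elongation complex, was at 65.3 and 67.6 CPM in mut and 64.0 and 70.3 CPM in wt. The log2 fold changes were -0.14 ± 0.116 (SE) for Uchl5, -0.28 ± 0.167 for Trove2, 0.02 ± 0.110 for Glrx2 and -0.01 ± 0.106 for Cdc73, each with an adjusted p of 1. B3galt2 had at most 6 counts in a library. Of the 10 neighbours 4 were tested, and 0 were called by edgeR or DESeq2 or had an unadjusted p under 0.05. The shares called over all genes tested were 0.0583% with edgeR and 0.714% with DESeq2, so nothing is read from the 0 calls.

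**Figure D4:**
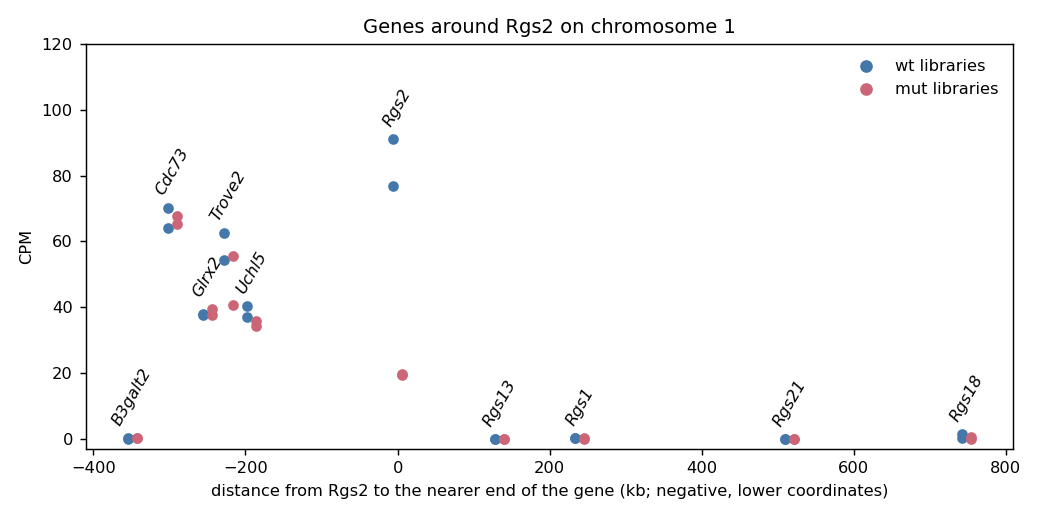
Level in CPM (vertical axis) of the genes around Rgs2 on chromosome 1 against their distance from Rgs2 in kilobases (horizontal axis), wt libraries in blue and mut libraries in red (Fam5c lies beyond the range). The groups are far apart at Rgs2, at 76.8 and 91.1 against 19.5 and 19.6 CPM, while Cdc73 and Glrx2 overlap and the RGS genes at higher coordinates lie at or near 0.

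The partners, targets and receptors of the RGS proteins were taken from lists, and 124 genes of the G protein pathway, the 12 other RGS genes included, had a row. Of these, 97 were tested and 0 were called in the edgeR fit reported. That fit called only 0.0583% of all genes tested, so nothing is read from 0 calls here or in the single lists below. At an unadjusted p under 0.05 there were 7 higher and 4 lower in mut. The share of all genes tested under that unadjusted p was not computed, so nothing is read from these 2 counts. The median log2 fold change of the pathway genes was 0.00396. DESeq2, which called 0.714% of all genes it tested, called 2 of them, F2rl1 as higher and Ednra as lower. With the replicate number as a block in edgeR, 4 of them were called, F2rl1 as higher and Ednra, Gng2 and Gng13 as lower, where that fit called 2.49% of all genes tested.

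Among G alpha subunits, the direct targets of RGS proteins, 13 of 16 were tested, 0 were called and 0 had an unadjusted p under 0.05. Their log2 fold changes lay between -0.24 and 0.09. Gnas, the subunit that stimulates adenylyl cyclase, was at 929 and 856 CPM in mut and 918 and 898 CPM in wt, and Gnai3, an inhibitory subunit, was at 263 and 277 CPM in mut and 262 and 282 CPM in wt. The groups overlapped for both. Of 16 G beta and gamma genes 13 were tested, and 11 had a negative log2 fold change, and 0 were called. The median of the 13 was -0.211, against -0.000881 over all genes tested. Gnb5, also a G beta subunit, was listed with the RGS partners instead and had a positive log2 fold change of 0.52. Gnb1 was at 542 and 552 CPM in mut and 520 and 574 CPM in wt, and Gng5 at 121 and 92.3 CPM in mut and 127 and 116 CPM in wt. Gng2, a widely expressed gamma subunit, was at 49.0 and 45.6 CPM in mut against 62.9 and 64.1 CPM in wt (log2 fold change -0.43 ± 0.107 SE, adjusted p = 0.437).

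Effectors of G alpha, the adenylyl cyclases and phospholipases C beta, had 13 of 14 genes tested and 0 called. Plcb3, a G alpha q effector, was at 265 and 217 CPM in mut and 249 and 238 CPM in wt, and Adcy6 at 99.0 and 83.0 CPM in mut and 95.5 and 99.3 CPM in wt. Plcb4 had a log2 fold change of 0.42 ± 0.120 (adjusted p = 0.539). Genes that bind RGS proteins or set their turnover had 12 of 14 tested and 0 called, with the ubiquitin ligase components Cul4b (log2 fold change 0.04) and Ubr2 (0.03) the most counted. Gnb5, the partner of the R7 proteins, was at 16.2 and 17.4 CPM in mut and 10.5 and 12.9 CPM in wt (log2 fold change 0.52 ± 0.174 SE, adjusted p = 0.707). Of 15 further proteins with an RGS homology domain 14 were tested and 0 called, led by Arhgef12 (0.09) and Axin1 (0.07), and of 7 other regulators of G alpha 6 were tested and 0 called, led by Gpsm2 (-0.10) and Ric8b (-0.07).

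Gq-coupled receptors held the genes closest to a call. Of 30 listed, 19 were tested, 0 were called in the edgeR fit reported, and 10 had a positive and 9 a negative log2 fold change. F2r, the thrombin receptor, was at 63.3 and 54.1 CPM in mut and 59.8 and 66.4 CPM in wt, and the groups overlapped. Ednra, the endothelin receptor type A, was at 34.4 and 35.4 CPM in mut and at 67.4 and 65.6 CPM in wt. Its log2 fold change was -0.93 ± 0.106 (SE), with an adjusted p of 0.0624 in edgeR and 6.29e-06 in DESeq2. F2rl1, a receptor cleaved by trypsin-like proteases, was at 2.81 and 3.12 CPM in mut and 0.407 and 0.453 CPM in wt. Its counts were 31 and 47 against 7 and 8, and the log2 fold change of 2.77 ± 0.412 had an adjusted p of 0.138 in edgeR and 0.0401 in DESeq2. F2rl1, Plcb4, Gnb5 and Gng2 were picked out after their values were seen.

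**Figure D5:**
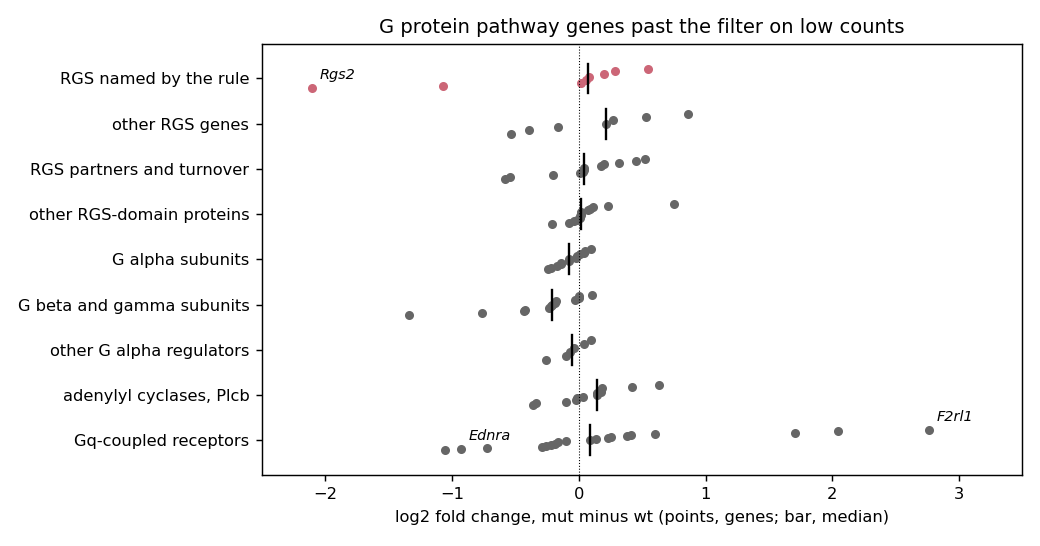
Log2 fold change, mut minus wt (horizontal axis), of each G protein pathway gene past the filter, one row per list, with the median as a bar and the RGS genes named by the rule in red at the top. Ednra at -0.93 and F2rl1 at 2.77 were called by DESeq2 and not in the edgeR fit reported, and the G alpha subunits lie between -0.24 and 0.09. With the likelihood ratio test or the replicate block, edgeR called both genes.

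Markers of ovarian stroma tended to be lower in the mut libraries. Of 8 listed stromal genes, 7 had a negative log2 fold change, with a median of -0.461. In the edgeR fit reported 0 were called, with 4 lower at an unadjusted p under 0.05. DESeq2 called 2 as lower, and the edgeR fit with the replicate block called 5 as lower. Over all genes tested these fits called 0.0583%, 0.714% and 2.49%, in that order. Nothing is read from the 4, since the share of all genes tested under that unadjusted p was not computed. Tcf21, a factor of the gonadal interstitium, was at 28.0 and 23.3 CPM in mut and 57.7 and 51.7 CPM in wt (log2 fold change -1.10 ± 0.138 SE, edgeR adjusted p = 0.0811). Pdgfra, a receptor of stromal progenitors, was at 168 and 139 CPM in mut and 233 and 217 CPM in wt (log2 fold change -0.55 ± 0.116, edgeR adjusted p = 0.301), and Col1a1 was at 554 and 314 CPM in mut and 405 and 378 CPM in wt. The summed level of the 8 overlapped between the groups, at 1034 and 653 CPM in mut and 1004 and 946 CPM in wt, and none was at 0. Col1a1, the most counted of the 8, made up a large part of that sum. Taken gene by gene, 6 of the 8 did not overlap between the groups, which was so for 30.9% of all genes tested. The part of stromal cells in the Rgs2 and Ednra values was not tested.

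In the other marker lists the edgeR fit reported also called 0 genes. It called only 0.0583% of all genes tested, so nothing is read from the 0. Endothelial markers summed to 480 and 455 CPM in mut and 496 and 516 CPM in wt, with 8 of 8 tested and 0 called. Pericyte and smooth muscle markers summed to 302 and 250 CPM in mut and 323 and 312 CPM in wt, and neural and glial markers to 33.1 and 26.3 CPM in mut and 46.5 and 34.4 CPM in wt. DESeq2 called 0 genes in these 3 lists, 1 as lower among the erythroid genes and 1 as lower among the pre-granulosa genes. The edgeR fit with the replicate block, which called 2.49% of all genes tested, called 5 erythroid genes as lower. Among the pre-granulosa genes it called 1 as higher and 1 as lower. In each of the endothelial, pericyte and smooth muscle, macrophage, and megakaryocyte and platelet lists it called 1 as lower. Among the germ cell and the neural and glial genes it called 0.

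The 5 genes whose pattern over the 4 libraries was nearest to that of Rgs2, by Euclidean distance between centred log2 CPM profiles, were Kcnd2, Bmp5, Butr1, Crym and Dach1. Their distances ran from 0.335 to 0.616. Kcnd2, a voltage-gated potassium channel subunit, was at 7.44 and 7.71 CPM in mut and 31.5 and 27.8 CPM in wt. Bmp5, a secreted growth factor, was at 1.63 and 1.13 CPM in mut and 5.87 and 5.50 CPM in wt, and Dach1, a transcriptional cofactor, had means of 3.37 ± 1.01 CPM in mut and 11.4 ± 0.853 CPM in wt (SD, n = 2 each). Crym and Butr1 were counted much less, with 2 or 3 counts per mut library. All 5 were lower in both mut libraries than in both wt libraries, which the search for profiles like that of Rgs2 selects for, so no test is given.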

How the data were processed

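The authors aligned the reads with STAR 2.6.1d (build mm9 per the labels), used summarizeOverlaps to assign them to genes, and deposited the raw counts library by library without scaling. The annotation used for counting and the handling of strand were not given in the sources used here. In R 4.3.3, edgeR 4.0.16 was run on all 4 libraries with TMM normalization, filterByExpr, genotype as the only factor and the quasi-likelihood test with Benjamini-Hochberg adjustment over all 15442 genes tested (adjusted p under 0.05). The standard errors were calculated back from that fit, as the size of the log2 fold change divided by the square root of its F statistic. The 95% intervals were built from these standard errors. DESeq2 1.42.0 at its defaults (the tool the authors ran), the likelihood ratio test, RLE and upper-quartile scaling, other filters, a replicate block and the removal of each library were run as alternatives. An exact permutation test of 2 against 2 libraries cannot go below p = 0.333, so none was used. The libraries of a group differed beyond sampling noise (chi-square per degree of freedom 11.8 for mut and 13.2 for wt).

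The RGS genes and all gene lists were chosen with earlier results of these data known. The genes named are the 10 RGS genes, every other RGS gene with at least 10 counts in all, Sall1, the 5 neighbours on either side of Rgs2, the 5 profiles nearest to that of Rgs2 and, per pathway list, the genes with an adjusted p under 0.05 and the 2 with the highest mean CPM. Others were chosen after their values were seen, as were Rgsl1 and the marker genes named. Lengths and positions come from GENCODE M1 on NCBIM37, which held 21602 of the 34682 symbols and all 10 RGS genes. No exon of the 10 genes overlapped an exon of another annotated gene. The fit was tested on simulated data.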

Additional observations from a re-analysis of the deposited data

How the results depend on the processing

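Rgs2 was the 1 RGS gene called of those tested, a call that is no independent support since the gene was chosen by this comparison, and 0 neighbours of Rgs2 were called, under each of the 11 alternatives, and Rgs2 held rank 1 in wt with both lengths. For the neighbours, these alternatives were chosen after seeing the data. The fitted Rgs2 log2 fold change lay between -2.11 and -2.10 with the other tools, scalings and filters, and between -2.22 and -1.96 when 1 library was left out, the last value being without wt replicate 2. The count of all genes called was 9 in the fit reported, 105 with DESeq2, 134 with the likelihood ratio test, 28 with no filter on low counts, 19 with at least 10 counts in every library, 10 with RLE or upper-quartile scaling, and 4 to 130 with 1 library left out (130 without mut replicate 1, 38 without mut replicate 2, 7 without wt replicate 1 and 4 without wt replicate 2). Pathway genes called went from 0 to 2 with DESeq2 and with the likelihood ratio test (Ednra and F2rl1), to 1 with no filter and with at least 10 counts in every library (Ednra), and to 0 to 1 with 1 library left out (Ednra without either mut replicate). With 1 library left out, the lone library of a group is assumed to vary like the other group. The cause of these differences was not tested.

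With the replicate number as a replicate block, 385 genes (2.49% of those tested) and 4 pathway genes (Gng2, Gng13, Ednra and F2rl1) were called, and the Rgs2 value was -2.10. Within replicate 1 the log2 difference of Rgs2 between mut and wt was -1.97, and within replicate 2 it was -2.21. Deviations of the same-numbered libraries from their group means correlated at 0.481, and the names of the count columns give same-numbered libraries consecutive library numbers. With only 2 pairs, and no source that says what these numbers share (litter, day or preparation), whether they pair the samples could not be settled. The block changed no call among the RGS genes.

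Small differences changed direction without 1 library: Rgs10 was at -0.0432 and Rgs16 at -0.0176 without mut replicate 2, and Rgs19 was at -0.0234 without mut replicate 1 and -0.00706 without wt replicate 2. Rgs4 ranged from -1.99 to -0.444 and could not be fitted with at least 10 counts in every library. Depth limits Rgs1, Rgs13, Rgs18 and Rgs21, which lie near or under the floor of 3 counts in some libraries. It also limits Rgs4, which stayed above the floor but had only 6 counts in mut replicate 2.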
